A study of Mus musculus with 6 samples.

Results

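The mitochondrial ribosomal proteins were taken by gene symbol, as annotated genes named Mrpl (large subunit) or Mrps (small subunit) followed by a number and an optional a or b. The rule gave 76 of the 43412 annotated genes in the files, 48 of the large and 28 of the small subunit, and Mrpl33, which also meets it in the annotation, was not analysed here. All 76 had a mean of at least 1 TPM (a transcript level scaled for transcript length and library size) and entered the test, among 13749 genes tested. The libraries were 3 of hypoxia-treated GC-2spd cells, kept at 1% oxygen, and 3 of normoxic cells, kept at 21% oxygen, without a further agent. GC-2spd is 1 established mouse line derived from spermatocytes by immortalisation, labelled here as C57BL/6J testis, and their labels state neither the hours in hypoxia nor whether each library is a culture of its own. The p-values therefore measure only the spread between these libraries, which may be technical.

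Mitochondria translate the few mRNAs of their own DNA, all of which encode subunits of the oxidative phosphorylation complexes, on a ribosome of their own. Its rRNAs are made inside the organelle, whereas every one of its proteins is encoded in the nucleus, made in the cytosol and imported. Many of these proteins descend from bacterial ribosomal proteins, and the others were added to the ribosome in mitochondria, where they replace lost rRNA or tie the ribosome to the inner membrane at which its products are inserted.

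Sequences around the start sites are shown for the 2 members of each subunit that were lowered most and for both higher members, since a shared promoter element is one feature that the choice by symbol did not use. They are the RefSeq sequences of GRCm38.p6, 300 bases each, read 5′ to 3′ on the strand of the gene. Mrpl41 is at chr2:24975049-24975348 on the minus strand, Mrpl52 at chr14:54426659-54426958 on the plus strand, Mrps2 at chr2:28467816-28468115 on the plus strand, Mrps6 at chr16:92058086-92058385 on the plus strand, Mrpl9 at chr3:94443086-94443385 on the plus strand and Mrpl45 at chr11:97315466-97315765 on the plus strand. Capitals mark matches, on either strand, to one of the motifs searched: GCGCATG (a core of the NRF1 site), CCGGAAG (the site of ETS factors, among them NRF2/GABP), AAGATGGCG (YY1), CACGTG (the E-box) and ACGTG (the core of the hypoxia response element, which lies within every E-box).
Mrpl41: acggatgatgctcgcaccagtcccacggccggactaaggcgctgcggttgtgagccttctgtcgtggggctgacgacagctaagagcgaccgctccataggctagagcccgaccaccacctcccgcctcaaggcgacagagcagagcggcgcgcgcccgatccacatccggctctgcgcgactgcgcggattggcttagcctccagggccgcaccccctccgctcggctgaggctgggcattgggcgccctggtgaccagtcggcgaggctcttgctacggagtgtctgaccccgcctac
Mrpl52: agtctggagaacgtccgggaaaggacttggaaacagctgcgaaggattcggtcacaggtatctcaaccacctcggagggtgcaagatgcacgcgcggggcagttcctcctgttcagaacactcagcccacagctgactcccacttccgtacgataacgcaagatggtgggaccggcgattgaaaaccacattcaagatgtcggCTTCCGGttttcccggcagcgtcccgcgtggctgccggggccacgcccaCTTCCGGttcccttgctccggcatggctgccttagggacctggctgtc
Mrps2: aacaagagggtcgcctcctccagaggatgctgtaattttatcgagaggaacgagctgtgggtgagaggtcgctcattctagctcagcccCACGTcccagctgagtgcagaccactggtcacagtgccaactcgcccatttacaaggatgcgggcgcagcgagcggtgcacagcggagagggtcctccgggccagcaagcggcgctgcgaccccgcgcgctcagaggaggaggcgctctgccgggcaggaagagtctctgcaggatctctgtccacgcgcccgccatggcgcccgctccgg
Mrps6: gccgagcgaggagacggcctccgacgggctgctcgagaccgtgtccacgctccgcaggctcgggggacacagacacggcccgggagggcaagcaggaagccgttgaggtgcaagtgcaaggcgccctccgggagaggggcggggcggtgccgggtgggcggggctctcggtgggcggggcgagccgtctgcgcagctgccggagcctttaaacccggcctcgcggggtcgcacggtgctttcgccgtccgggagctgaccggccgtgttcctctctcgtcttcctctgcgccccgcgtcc
Mrpl9: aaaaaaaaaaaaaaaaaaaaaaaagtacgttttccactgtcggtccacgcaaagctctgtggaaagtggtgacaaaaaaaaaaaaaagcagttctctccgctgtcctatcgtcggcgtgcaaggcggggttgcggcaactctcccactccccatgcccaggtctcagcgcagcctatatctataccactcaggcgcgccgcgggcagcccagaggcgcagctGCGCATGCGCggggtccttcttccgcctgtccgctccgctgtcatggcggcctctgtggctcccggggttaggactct
Mrpl45: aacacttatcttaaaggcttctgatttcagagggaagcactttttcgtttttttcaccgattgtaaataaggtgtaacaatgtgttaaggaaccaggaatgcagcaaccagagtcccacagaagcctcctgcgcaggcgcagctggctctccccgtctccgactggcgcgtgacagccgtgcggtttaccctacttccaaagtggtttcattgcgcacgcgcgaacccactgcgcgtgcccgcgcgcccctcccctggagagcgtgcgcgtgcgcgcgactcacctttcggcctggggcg
The Mrpl41, Mrps6 and Mrpl45 sequences held none of these motifs. The Mrpl52 sequence held CCGGAAG on the minus strand at both marked places, Mrps2 held ACGTG on the minus strand, and Mrpl9 held overlapping GCGCATG matches on both strands.

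As a measured setting for what follows, the libraries held 5.80 to 6.72 Gb of aligned bases in the hypoxia-treated group and 5.75 to 6.61 Gb in the normoxic group. All 6 known hypoxia-induced genes looked up (Ndrg1, Bnip3, Egln1, Pgk1, Vegfa and Slc2a1) were higher under hypoxia, with a median log2 fold change of 1.999. The labelled germ cell origin was not borne out by markers, since none of 10 spermatocyte and none of 7 spermatid genes reached 1 TPM and Sycp1, Stra8 and Hormad1 were at 0 in every library. All 5 fibroblast and myoid genes were present, with a summed level of 2721 to 2976 TPM in hypoxia-treated and 2283 to 2352 TPM in normoxic cells, and their part in the results below was not tested. The share of TPM outside annotated genes was 2.30 to 5.17% in hypoxia-treated and 1.86 to 2.75% in normoxic libraries, and its part was not tested either. The median log2 fold change of all genes tested was −0.13, and scaling the libraries to a common median moved it to 0.00, so each member is also read against that median.

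Most genes of both subunits were lower in hypoxia-treated cells, by moderate amounts. Of the 48 large subunit genes, 33 were lower, 2 were higher (Mrpl9 and Mrpl45) and 13 did not pass the test (limma on log2(TPM + 1), Benjamini-Hochberg adjusted p under 0.05 over all genes tested). Of the 28 small subunit genes, 15 were lower, 0 were higher and 13 did not pass, and at an unadjusted p under 0.05 there was 1 higher gene, Mrps30. Over all genes tested, 36.1% were lower and 17.9% were higher, and over the tested protein-coding genes 40.1% were lower and 17.8% higher. The median log2 fold change was −0.35 in each subunit, against −0.13 over all genes. Relative to the median of all genes it was −0.22 in each subunit, and 38 of 48 large and 18 of 28 small subunit genes lay below that median. Scaling to a common median left 21 large and 13 small subunit genes lower, with 6 large and 2 small higher. The same scaling gave 3622 lower and 3603 higher genes over all, in place of 4967 and 2463. In these bulk libraries, less RNA per cell and fewer cells that hold it cannot be told apart.

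**Figure D1:**
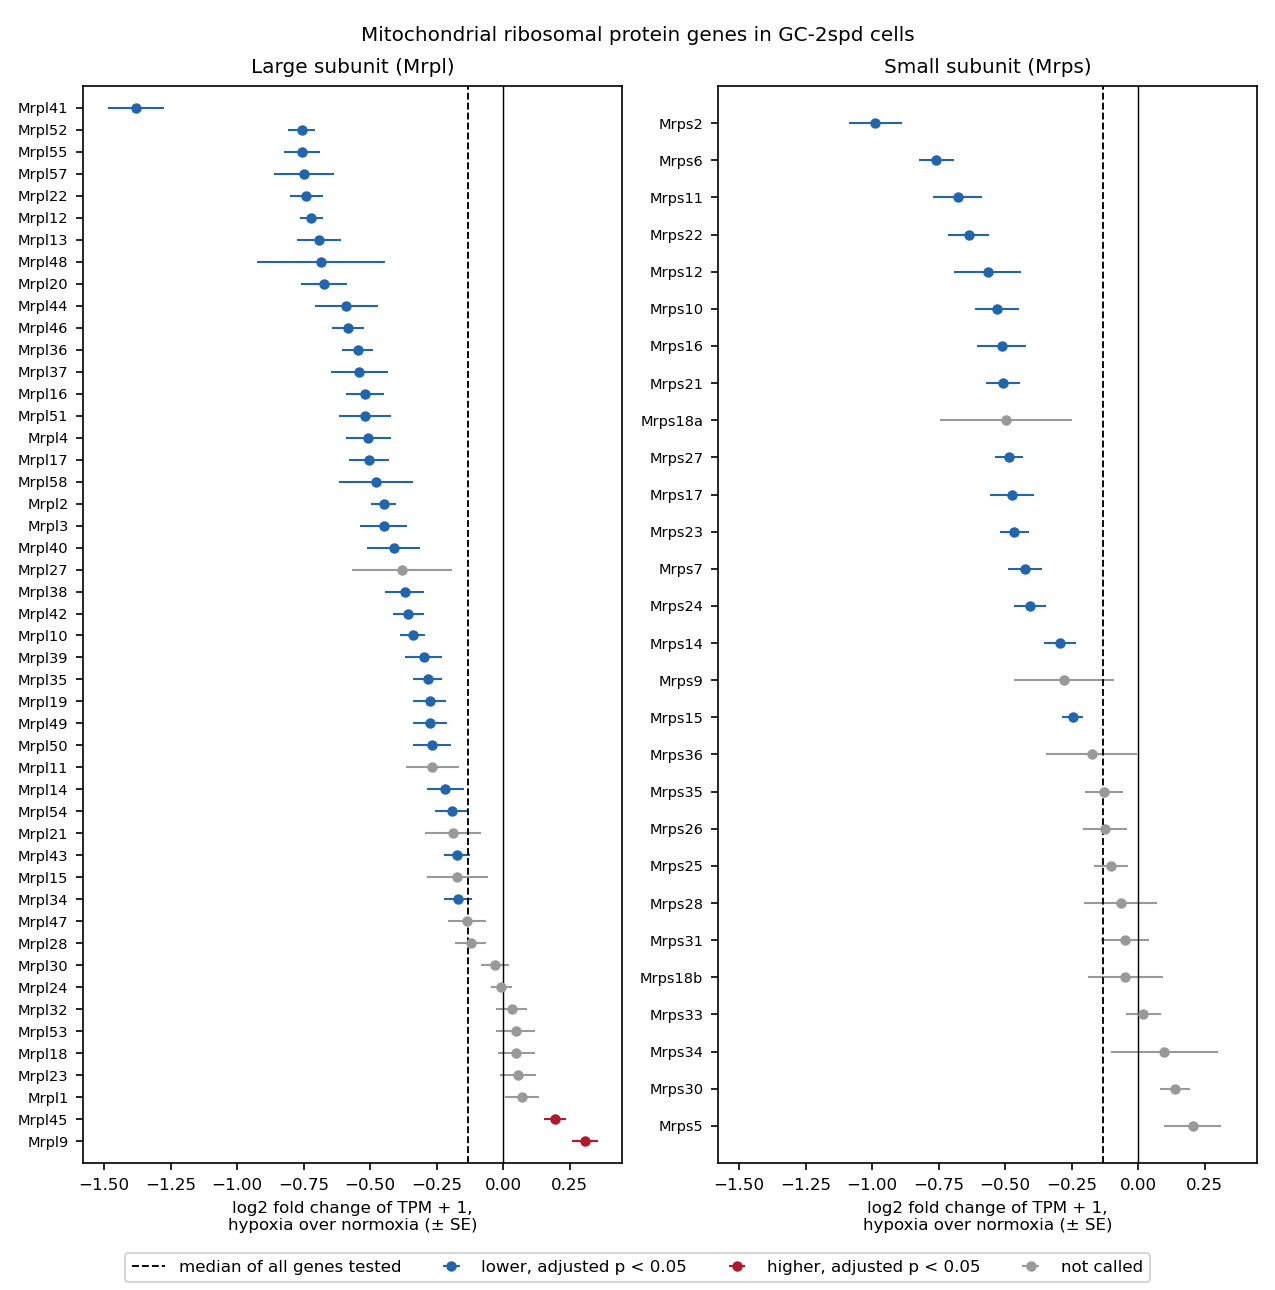
Log2 fold change of TPM + 1, hypoxia over normoxia, for each of the 48 large subunit genes (left) and 28 small subunit genes (right), with limma's standard error; blue genes were lower, red genes higher and grey genes not called, and the dashed line is the median of all genes tested. Mrpl41 stands apart at −1.38, and the only red genes are Mrpl45 and Mrpl9.

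Mrpl41, a large subunit protein that exists only in mitochondrial ribosomes and has been reported in human cells to bind the apoptosis inhibitor BCL2, had the greatest change of all 76. Its gene (ENSMUSG00000036850, mm10 chromosome 2, 24974117 to 24975098, minus strand) had 13.96, 18.7 and 17.5 TPM in the hypoxia-treated libraries, against 46.3, 44.2 and 44.0 TPM in the normoxic libraries. All 3 hypoxia-treated values were thus below every normoxic value, and the mean level was 37.2% of the normoxic one. The log2 fold change was −1.38 ± 0.11 (SE, limma adjusted p = 8.01e-05). The neighbouring gene Pnpla7, which starts 935 bases away on the other strand, was also lower (log2 fold change −0.42, adjusted p = 0.0049).

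The next members of the large subunit lay close together, with log2 fold changes of −0.76 to −0.72. Mrpl52, a protein of the central protuberance that is particular to mitochondria, had 88.3, 93.8 and 94.6 TPM in hypoxia-treated cells and 159, 163 and 149 TPM in normoxic cells (−0.76 ± 0.05, adjusted p = 4.90e-05). Mrpl55, the counterpart of bacterial bL31, had 28.8, 25.6 and 28.8 TPM in hypoxia-treated cells and 47.4, 49.5 and 45.5 TPM in normoxic cells (−0.76 ± 0.07, adjusted p = 1.49e-04). In both genes the groups were far apart for their spread, and the hypoxia-treated level was 58.8% and 58.4% of the normoxic level. Mrpl57, a small protein found only in mitochondrial ribosomes and the least abundant large subunit transcript, had 5.63, 7.34 and 6.72 TPM in hypoxia-treated cells and 12.4, 10.6 and 12.1 TPM in normoxic cells (−0.75 ± 0.11, adjusted p = 0.0015). Its groups did not overlap, but at the locus assembled from the reads its log2 fold change was −0.32 with an adjusted p of 0.30, so the call depends on which of the deposited values is read.

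Mrpl22, whose bacterial counterpart lines the exit tunnel, had 39.4, 41.8 and 40.1 TPM in hypoxia-treated cells and 63.5, 72.2 and 69.3 TPM in normoxic cells (−0.74 ± 0.06, adjusted p = 1.14e-04). Mrpl12, the stalk protein that recruits translation factors and has also been described in human mitochondria as a partner of the mitochondrial RNA polymerase, had 66.0, 65.6 and 67.5 TPM in hypoxia-treated cells and 110, 113 and 107 TPM in normoxic cells (−0.72 ± 0.04, adjusted p = 3.05e-05). The Mrpl12 values had one of the narrowest spreads of the strongly lowered members, with an SD of 0.965 TPM in hypoxia-treated and 3.28 TPM in normoxic cells. In the rest of the stalk, Mrpl10, the base that carries Mrpl12, was lower (83.2, 79.1 and 84.5 TPM against 108, 101 and 104 TPM in normoxic cells; −0.34 ± 0.05, adjusted p = 0.0011). Mrpl11, the remaining stalk protein, had 20.4, 20.6 and 23.6 TPM in hypoxia-treated and 29.0, 23.2 and 26.3 TPM in normoxic cells, groups that overlapped, and it missed the threshold (−0.27 ± 0.10, adjusted p = 0.056). Without hypoxia-treated library 3 or normoxic library 2 it passed, with adjusted p values of 0.040 and 0.025.

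Mrpl9 and Mrpl45 went the other way. Mrpl9 (mm10 chromosome 3, 94443336 to 94448708, plus strand), the counterpart of bacterial bL9, had 66.8, 72.2 and 71.2 TPM in hypoxia-treated cells and 56.5, 55.7 and 57.3 TPM in normoxic cells (0.31 ± 0.05, adjusted p = 0.0019). Mrpl45 (chromosome 11, 97315716 to 97329920, plus strand), which anchors the large subunit to the inner membrane beside the tunnel exit, had 91.2, 90.3 and 92.2 TPM in hypoxia-treated cells and 82.0, 78.0 and 79.0 TPM in normoxic cells (0.19 ± 0.04, adjusted p = 0.0071). All hypoxia-treated values of either gene were above all normoxic values, and both calls stood in all 17 alternative settings.

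**Figure D2:**
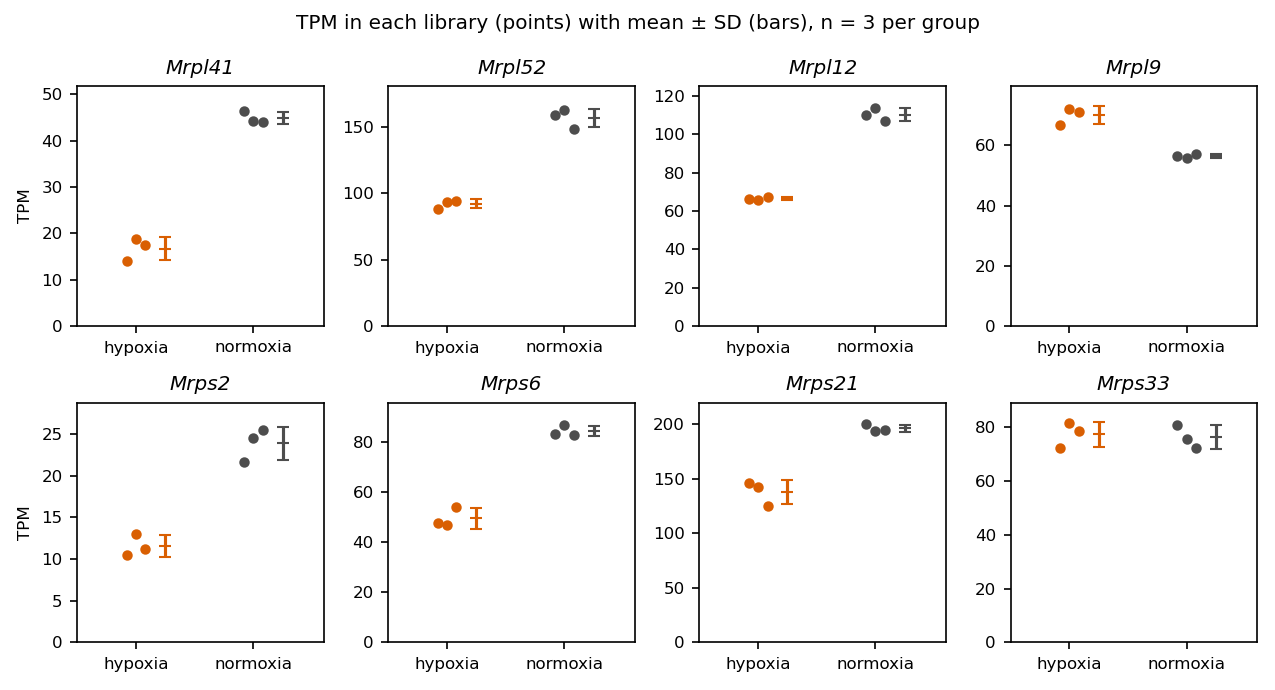
TPM of 8 members in each library, hypoxia-treated on the left of each panel and normoxic on the right, with the mean and SD beside the 3 points. The groups are apart in 7 panels, with Mrpl9 higher under hypoxia, and they overlap for Mrps33.

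Among the proteins that ring the polypeptide exit, Mrpl45 was higher and others were lower. Besides Mrpl22, Mrpl17 was lower with 22.8, 23.6 and 19.8 TPM in hypoxia-treated and 32.2, 31.8 and 31.2 TPM in normoxic cells (−0.51 ± 0.08, adjusted p = 0.0014). Mrpl44, a protein with a fold like that of RNase III, was lower with 16.4, 21.4 and 17.8 TPM against 31.9, 27.0 and 26.1 TPM in normoxic cells (−0.59 ± 0.12, adjusted p = 0.0052). Mrpl23, Mrpl24 and Mrpl47 did not pass, at 0.06, −0.01 and −0.14. Mrpl47, the counterpart of bacterial uL29 and among the least abundant members, had 9.93, 10.6 and 10.0 TPM in hypoxia-treated and 10.8, 11.4 and 11.7 TPM in normoxic cells, which did not overlap although the test was not passed (adjusted p = 0.14). In all, 3 of the 7 exit proteins were lower (42.9%) and 1 higher (14.3%), near the 40.1% and 17.8% over tested protein-coding genes. Their median was −0.14, beside −0.13 over all genes tested. It was −0.00 after scaling to a common median and 0.06 after quantile normalization.

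In the central protuberance (the crest of the large subunit where a tRNA is built in as a structural RNA in mammals), 5 of 7 members were lower and the others not called, with a median of −0.41, where 36.1% of all genes tested were lower. Scaling to a common median left 3 lower and 1 higher, with a median of −0.27. Mrpl46 had 21.0, 22.4 and 20.5 TPM in hypoxia-treated and 32.5, 33.3 and 31.4 TPM in normoxic cells (−0.58 ± 0.06, adjusted p = 2.64e-04). Mrpl38 had 105, 101 and 112 TPM in hypoxia-treated and 146, 141 and 125 TPM in normoxic cells (−0.37 ± 0.07, adjusted p = 0.0048). The groups were apart in both. Mrpl48 was called at −0.68 ± 0.24 (adjusted p = 0.048), but its values of 11.0, 12.4 and 11.6 TPM in hypoxia-treated cells overlapped those of 25.1, 12.4 and 23.1 TPM in normoxic cells, because the second normoxic library was as low as the hypoxia-treated ones. Leaving out any one of the other 5 libraries ended this call, with adjusted p values between 0.086 and 0.14. A processed pseudogene, Mrpl48-ps, was listed at 9.37 ± 1.59 TPM in hypoxia-treated and 9.24 ± 2.15 TPM in normoxic cells (SD, n = 3), and how reads were shared between such near-identical copies is uncertain.

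In the small subunit, Mrps2 changed the most. This counterpart of bacterial uS2 (ENSMUSG00000035772, chromosome 2, 28468066 to 28471178, plus strand) had 10.5, 13.0 and 11.2 TPM in hypoxia-treated cells and 21.6, 24.5 and 25.5 TPM in normoxic cells, so that its mean was 48.4% of the normoxic mean (−0.99 ± 0.10, adjusted p = 2.55e-04). It was at the same time the least abundant of the small subunit transcripts over the 6 libraries, at a mean of 17.7 TPM. Mrps6 had 47.4, 46.6 and 54.0 TPM in hypoxia-treated cells and 83.1, 86.4 and 82.7 TPM in normoxic cells (−0.76 ± 0.07, adjusted p = 1.36e-04). The Mrps6 gene shares 19.9% of its exon bases with Gm49711 and 10.4% with Slc5a3, both on its own strand, and its value is uncertain to that extent.

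Mrps11, the counterpart of bacterial uS11, had 28.2, 30.0 and 24.1 TPM in hypoxia-treated and 45.8, 46.4 and 41.0 TPM in normoxic cells (−0.68 ± 0.09, adjusted p = 0.0010). Its gene overlaps that of Mrpl46 head to head on chromosome 7, with 173 exon bases in common, so that 1 stretch of DNA holds the start of a gene of each subunit, and both transcripts were lower. Mrps22, a protein added in mitochondria, had 24.8, 26.9 and 29.1 TPM in hypoxia-treated and 39.4, 43.5 and 44.2 TPM in normoxic cells (−0.64 ± 0.08, adjusted p = 5.73e-04). Mrps12, which sits at the decoding centre, had 29.9, 39.4 and 41.9 TPM in hypoxia-treated and 53.3, 58.7 and 52.6 TPM in normoxic cells (−0.56 ± 0.13, adjusted p = 0.0083). Groups were apart in all 3, although the first hypoxia-treated library was well below the others for Mrps12. Mrps10 had 48.1, 43.3 and 50.1 TPM against 68.8, 74.3 and 62.6 TPM in normoxic cells (−0.53 ± 0.08, adjusted p = 0.0017).

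The 10 members of highest mean TPM had log2 fold changes between −0.76 (Mrpl52) and 0.05 (Mrpl18), with 7 lower and 3 not called. Of all genes tested, 36.1% were lower and 17.9% higher. Mrpl14 and Mrpl34, the highest of the large subunit, were lower by small amounts. Mrpl14 had 188, 184 and 178 TPM in hypoxia-treated and 221, 229 and 192 TPM in normoxic cells (−0.22 ± 0.07, adjusted p = 0.036), and Mrpl34 had 161, 157 and 168 TPM against 185, 172 and 191 TPM in normoxic cells (−0.17 ± 0.05, adjusted p = 0.031). Leaving out a single library ended the call in 5 of 6 cases for Mrpl14 and 4 of 6 for Mrpl34, and relative to the median of all genes they stood at −0.08 and −0.04. Mrps21 and Mrps15, the highest of the small subunit, were lower: Mrps21 had 146, 142 and 125 TPM in hypoxia-treated and 200, 194 and 194 TPM in normoxic cells (−0.51 ± 0.06, adjusted p = 6.71e-04). Mrps15, which binds the small rRNA directly, had 92.2, 89.3 and 92.2 TPM against 107, 110 and 108 TPM in normoxic cells (−0.25 ± 0.04, adjusted p = 0.0019), a call that scaling to a common median ended (−0.10, adjusted p = 0.079). Of the members that did not pass, the most abundant of each subunit were Mrpl28, with 153, 145 and 161 TPM in hypoxia-treated and 165, 159 and 177 TPM in normoxic cells (−0.12 ± 0.06, adjusted p = 0.11), and Mrps33, with 72.3, 81.5 and 78.5 TPM against 80.9, 75.8 and 72.4 TPM (0.02 ± 0.06, adjusted p = 0.82). In both the groups overlapped.

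A few proteins do not sit where their symbols put them. Mrps30 and Mrps18a belong to the large subunit in structures of the mammalian ribosome, and Mrps36 is a component of the 2-oxoglutarate dehydrogenase complex. Mrps30 had 66.5, 68.6 and 74.1 TPM in hypoxia-treated and 65.6, 62.0 and 61.9 TPM in normoxic cells, which did not overlap, and it did not pass the test (0.14 ± 0.06, adjusted p = 0.075). Mrps18a had 37.3, 69.0 and 70.8 TPM in hypoxia-treated cells and 67.8, 85.6 and 89.7 TPM in normoxic cells (−0.50 ± 0.25, adjusted p = 0.13), with the first library low in each group. Mrps36 had 44.5, 52.5 and 73.2 TPM against 68.3, 61.3 and 59.2 TPM in normoxic cells (−0.17 ± 0.17, adjusted p = 0.42), and it passed without hypoxia-treated library 3 (−0.37, adjusted p = 0.023). With these 3 placed by structure, 33 of 50 large subunit and 15 of 25 small subunit genes were lower, with medians of −0.35 and −0.41. Those shares were 66% and 60%, beside 36.1% of all genes tested, whose median was −0.13. Mrps18b, a paralog of Mrps18a that stayed in the small subunit, had 49.3, 52.2 and 47.9 TPM in hypoxia-treated and 61.4, 54.6 and 40.7 TPM in normoxic cells (−0.05 ± 0.14, adjusted p = 0.80), and a transcript antisense to it covers 30.5% of its exon bases.

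The remaining members can be given by range. In the large subunit Mrpl13, Mrpl20, Mrpl36, Mrpl37, Mrpl16, Mrpl51, Mrpl4, Mrpl58, Mrpl2, Mrpl3, Mrpl40 and Mrpl42 were lower by log2 fold changes of −0.69 (Mrpl13) to −0.36 (Mrpl42). Mrpl58, which frees stalled ribosomes by cutting the peptide from its tRNA, was called at −0.48 with an adjusted p of 0.024, and its hypoxia-treated values of 21.8, 22.9 and 32.0 TPM were uneven beside 34.2, 37.0 and 35.4 TPM in normoxic cells. Mrpl39, Mrpl35, Mrpl19, Mrpl49, Mrpl50, Mrpl54 and Mrpl43 were lower by −0.30 (Mrpl39) to −0.17 (Mrpl43). Scaling to a common median ended the call of each of these, and also those of Mrpl40 and Mrpl58. Leaving out a single library ended the calls of Mrpl43 in 4 of 6 cases (adjusted p up to 0.068), of Mrpl50 in 2 (up to 0.058), of Mrpl54 in 5 (up to 0.10) and of Mrpl58 in 5 (up to 0.074). Mrpl27, Mrpl21, Mrpl15, Mrpl30, Mrpl32, Mrpl53, Mrpl18 and Mrpl1 did not pass, with values between −0.38 (Mrpl27) and 0.07 (Mrpl1). Mrpl15 passed without normoxic library 2 (−0.29, adjusted p = 0.038) and Mrpl21 without normoxic library 1 (−0.29, adjusted p = 0.046). Mrpl27 had 63.1, 56.3 and 37.1 TPM in hypoxia-treated and 60.6, 70.9 and 68.5 TPM in normoxic cells, and the lowest of these was hypoxia-treated library 3.

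In the small subunit Mrps16, Mrps27, Mrps17, Mrps23, Mrps7, Mrps24 and Mrps14 were lower, by −0.51 (Mrps16) to −0.29 (Mrps14). Scaling to a common median ended the call of Mrps14, as did quantile normalization. Mrps27, a pentatricopeptide repeat protein, had 29.9, 29.6 and 29.9 TPM in hypoxia-treated and 44.2, 40.5 and 41.9 TPM in normoxic cells (−0.49 ± 0.05, adjusted p = 3.61e-04), and Mrps23 had 47.3, 49.4 and 50.8 TPM against 67.9, 71.4 and 65.5 TPM in normoxic cells (−0.47 ± 0.05, adjusted p = 4.55e-04). Both were called on very even replicates. Mrps9, Mrps35, Mrps26, Mrps25, Mrps28, Mrps31, Mrps34 and Mrps5 did not pass, with values between −0.28 (Mrps9) and 0.20 (Mrps5). Mrps31, the least abundant of them, had 16.3, 16.9 and 20.3 TPM in hypoxia-treated and 18.1, 18.3 and 18.7 TPM in normoxic cells. Mrps34 had 42.8, 70.1 and 73.7 TPM against 54.9, 52.4 and 62.6 TPM, and without the first hypoxia-treated library it was the 1 small subunit gene called higher (log2 fold change 0.34, adjusted p = 0.021). Most of its exon bases (63.4%) are also exon of Mapk8ip3 on the other strand and 37.0% are exon of Nme3 on its own.

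Counted by ancestry, the genes of proteins that descend from bacteria and of those added in mitochondria ran in opposite orders in the 2 subunits. For comparison, 36.1% of all genes tested and 40.1% of tested protein-coding genes were lower. In the large subunit 16 of 29 genes with a bacterial counterpart were lower (55.2%, median −0.28). Of 19 large subunit genes particular to mitochondria 17 were lower (89.5%, median −0.41), the exceptions being Mrpl53 and Mrpl45. Mrpl53 shares 88.0% of its exon bases with Gm42688 on its own strand, and its value is uncertain to that extent. In the small subunit the order was the other way round, with 12 of 17 genes with a bacterial counterpart lower (70.6%, median −0.48). Of the 11 small subunit genes particular to mitochondria 3 were lower (27.3%, below both background shares), namely Mrps22, Mrps23 and Mrps27. Their median was −0.13, beside −0.13 over all genes. By symbol, the 11 small subunit genes particular to mitochondria include Mrps30 and Mrps36, and Mrps18a is among the 17. With those genes placed by structure, the lower genes were 16 of 30 and 17 of 20 in the large subunit and 12 of 16 and 3 of 9 in the small (medians −0.28, −0.39, −0.45 and −0.13). With the libraries scaled to a common median, the counts of lower genes were 12 of 29 and 9 of 19 in the large subunit, so there the order of the shares was less pronounced, and 10 of 17 and 3 of 11 in the small subunit. The median of those 11 turned to 0.02 under that scaling and to 0.05 under quantile normalization. Without the first hypoxia-treated library they were 14 of 29, 12 of 19, 12 of 17 and 3 of 11. These are descriptions of lists of unequal size, and the difference between them was not tested.

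The summed levels of both subunits were lower under hypoxia, and the ratio between them overlapped between the groups. The large subunit genes summed to 2844, 2819 and 2886 TPM in hypoxia-treated and 3535, 3501 and 3483 TPM in normoxic cells. The small subunit genes summed to 1253, 1397 and 1373 TPM in hypoxia-treated and 1689, 1716 and 1647 TPM in normoxic cells. Neither sum overlapped between groups, and the hypoxia-treated mean was 81.3% of the normoxic mean for the large and 79.6% for the small subunit. The ratio of the large to the small sum was 2.13 ± 0.13 in hypoxia-treated and 2.08 ± 0.04 in normoxic cells (SD, n = 3 each), and the values of 2.27, 2.02 and 2.10 under hypoxia lay on both sides of the 2.09, 2.04 and 2.11 in normoxia. With genes placed by structure it was 2.67, 2.45 and 2.63 under hypoxia and 2.47, 2.42 and 2.53 in normoxia, which also overlapped. The mean log2(TPM + 1) of large minus that of small subunit genes went the other way, at 0.08 ± 0.07 under hypoxia and 0.11 ± 0.05 in normoxia (SD). The first hypoxia-treated library, with the highest ratio, had the lowest small subunit sum and also the highest share of TPM outside annotated genes (5.17%), whose part was not tested.

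**Figure D3:**
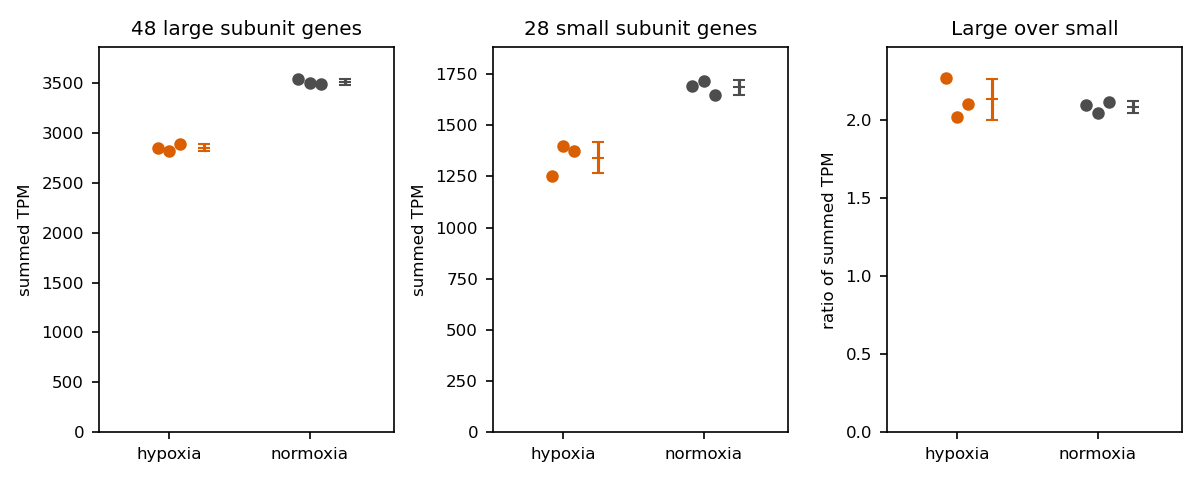
Summed TPM of the 48 large subunit genes, of the 28 small subunit genes, and the ratio of the first to the second in each library, hypoxia-treated on the left and normoxic on the right of each panel, with mean and SD. Both sums are lower in all 3 hypoxia-treated libraries, and the ratios overlap.

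Mitoribosomal proteins whose names fall outside the symbol rule were looked at in the same fit. Among these 6, the test called 4 lower (66.7%) and 1 higher (16.7%), with a median of −0.32. The shares over all genes tested were 36.1% lower and 17.9% higher. Ptcd3, another pentatricopeptide repeat protein of the small subunit, had 30.1, 31.7 and 31.9 TPM in hypoxia-treated and 56.8, 53.7 and 55.7 TPM in normoxic cells (−0.81 ± 0.05, adjusted p = 3.92e-05), a change exceeded among the members only by Mrpl41 and Mrps2. Mrps18c, a further paralog of Mrps18a, had 54.2, 57.4 and 49.6 TPM against 66.5, 79.6 and 70.3 TPM in normoxic cells (−0.42 ± 0.08, adjusted p = 0.0055). Chchd1 had 81.8, 87.8 and 89.8 TPM in hypoxia-treated and 112, 107 and 102 TPM in normoxic cells (−0.30 ± 0.06, adjusted p = 0.0036). All 3 were apart between the groups, and Aurkaip1 was lower as well at −0.34, although scaling to a common median ended the calls of Mrps18c and Aurkaip1. Gadd45gip1, a large subunit protein first described as an inhibitor of the cell cycle, was higher with 115, 119 and 117 TPM against 105, 109 and 105 TPM in normoxic cells (0.14 ± 0.04, adjusted p = 0.025), a call lost in 8 of 17 alternatives. These were leaving out any one of 4 libraries (adjusted p 0.052 to 0.077), FPKM (0.11), leaving out the mitochondrially encoded genes (0.13), no variance trend (0.062) and the replicate block (0.054). Dap3, a GTP-binding protein of the small subunit, was not called (0.16, adjusted p = 0.28).

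Most of the translation factors tested for this ribosome were lower. The list held 12 mitochondrial translation factors, of which 11 were tested, and the test called 8 lower and 1 higher (median −0.35), where 36.1% of all genes tested were lower and 17.9% higher. Scaling to a common median gave 7 lower and 2 higher (median −0.21), and quantile normalization 6 and 2 (median −0.18). The initiation factor Mtif2 had 21.6, 21.8 and 24.98 TPM in hypoxia-treated and 33.4, 32.2 and 35.6 TPM in normoxic cells (−0.55 ± 0.08, adjusted p = 0.0011). The elongation factor Tsfm had 22.2, 18.8 and 24.8 TPM against 34.8, 37.6 and 37.1 TPM in normoxic cells (−0.72 ± 0.10, adjusted p = 0.0011). Taco1, which activates translation of cytochrome oxidase subunit I, had 16.3, 12.1 and 15.7 TPM against 24.99, 25.43 and 25.45 TPM in normoxic cells (−0.75 ± 0.11, adjusted p = 0.0013). These 3 were well apart between the groups, whereas Mrrf, the ribosome recycling factor, was higher with 18.8, 21.0 and 17.8 TPM against 16.0, 16.1 and 13.5 TPM in normoxic cells (0.32 ± 0.10, adjusted p = 0.028). Without hypoxia-treated library 1 or 2 or normoxic library 3 the Mrrf call was lost (adjusted p 0.059 to 0.086), as it was with FPKM (0.052), without a filter on low values (0.060) and without the mitochondrially encoded genes (0.054).

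Of 25 genes for assembly of the mitochondrial ribosome and modification of its rRNA, limma called 12 lower (48%, median −0.37) and 13 did not pass. Over all genes tested 36.1% were lower, and over tested protein-coding genes 40.1%. Among the 25, limma called 0 higher, at an adjusted as at an unadjusted p under 0.05. After scaling to a common median it called 11 lower and 3 higher (11 and 6 after quantile normalization). Trub2, a pseudouridine synthase, had 9.63, 9.31 and 8.75 TPM in hypoxia-treated and 23.5, 22.7 and 25.3 TPM in normoxic cells (−1.28 ± 0.07, adjusted p = 2.43e-05). The rRNA methyltransferase Mrm3 had 7.78, 7.27 and 6.62 TPM against 16.4, 14.4 and 14.1 TPM in normoxic cells (−0.96 ± 0.09, adjusted p = 2.19e-04), and Nsun4, a methyltransferase that also joins the subunits, had 10.4, 11.0 and 11.0 TPM against 18.1, 20.4 and 21.4 TPM (−0.83 ± 0.08, adjusted p = 2.17e-04). The hypoxia-treated level of these 3 was 38.7 to 53.9% of the normoxic level. The rRNAs themselves, read here in libraries enriched for poly(A) RNA, were lower too: mt-Rnr1 of the small subunit had 923, 998 and 1017 TPM against 1134, 1241 and 1227 TPM in normoxic cells (−0.29 ± 0.05, adjusted p = 0.0033), and mt-Rnr2 of the large subunit had 712, 808 and 859 TPM against 934, 911 and 955 TPM (−0.24 ± 0.07, adjusted p = 0.023). Neither rRNA passed after scaling to a common median (−0.15 and −0.09), and mt-Rnr2 missed the threshold without normoxic library 1 or 3 (adjusted p = 0.060 and 0.066).

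Genes of the cytosolic ribosome were mostly higher. Of 76 cytosolic ribosomal protein genes 73 were tested, and the test called 52 higher (71.2%) and 1 lower (Rps27l), with a median of 0.24. For comparison, 17.9% of all genes tested were higher and 36.1% lower. Quantile normalization left 22 higher and 4 lower, with a median of 0.06, where 3575 of all 13749 genes tested were higher and 3639 lower. Rps12, with the smallest adjusted p of the list, had 3051, 3192 and 3140 TPM in hypoxia-treated and 2165, 2255 and 2163 TPM in normoxic cells (0.51 ± 0.03, adjusted p = 4.22e-05). The ratio of the summed cytosolic to the summed mitochondrial ribosomal protein genes was 25.3 ± 0.56 in hypoxia-treated and 17.3 ± 0.26 in normoxic cells (SD, n = 3 each), and its ranges of 24.95 to 25.96 and 16.98 to 17.49 did not overlap. As a ratio within each library, it does not change when a library's values are multiplied by a common factor.

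**Figure D4:**
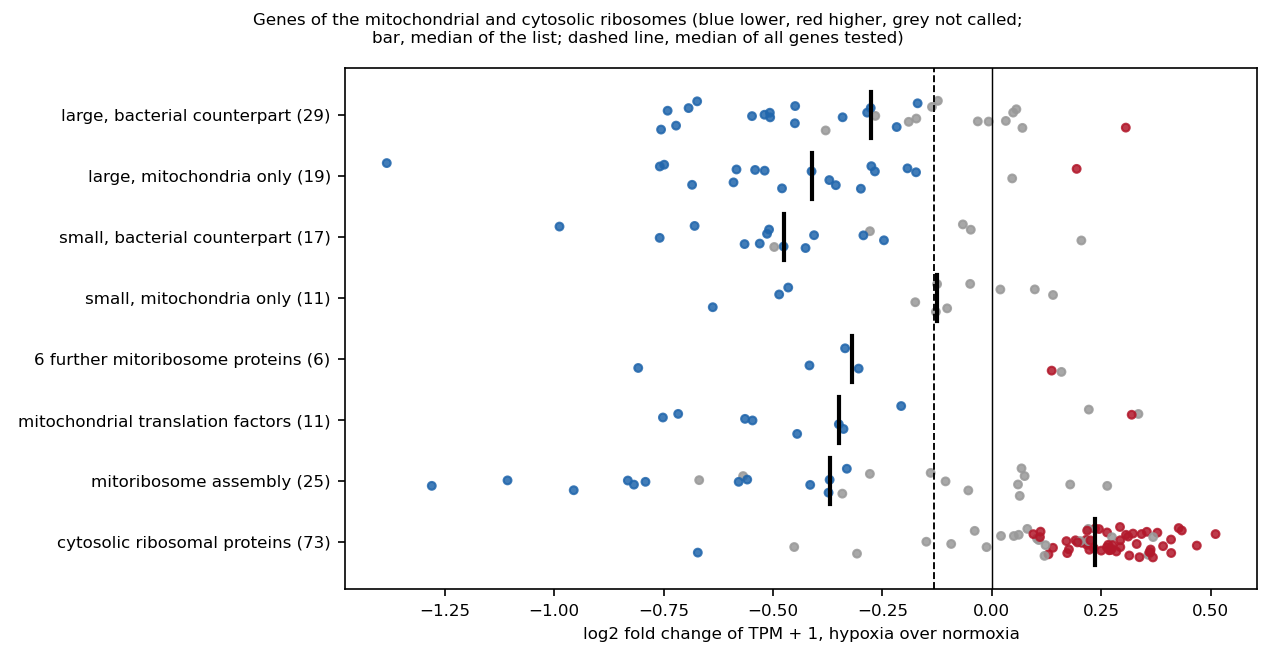
Log2 fold change of TPM + 1, hypoxia over normoxia, of each gene (points) by list, with the number tested in parentheses; colours give the call, black bars the median of the list and the dashed line the median of all genes. The lists of the mitochondrial ribosome have medians of −0.48 to −0.13 (the one at −0.13 turns to 0.02 after scaling to a common median), and the cytosolic ribosomal proteins have a median of 0.24.

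A minority of the members have a start site close to that of another gene, a feature that the choice by symbol did not use. A partner was a protein-coding gene of the opposite strand, running the other way, that started within 1000 bases or overlapped by at most 200. Mrps11 and Mrpl46, whose starts overlap by more, fell outside this rule. Of the 76, 22 (28.9%) had a partner, against 13.0% of 11291 tested protein-coding genes. The difference between these shares was not tested. The test called 11 of the 22 partners lower (50%) and 4 higher (18.2%), shares near the 40.1% and 17.8% over tested protein-coding genes. Of the 15 partners of lowered members, 5 were lower and 4 higher, and of the 7 partners of members not called, 6 were lower (Eme1, Mitd1, Psma2, Ppp1r10, Eme2 and Zfp661). The partner and the member went in opposite directions in 4 pairs, in which Mrpl44, Mrpl49, Mrpl51 and Mrpl54 were lower and Wdfy1, Fau, Ncapd2 and Apba3 were higher. Fau, which encodes a cytosolic ribosomal protein as a fusion, had 2512 ± 60.6 TPM in hypoxia-treated and 1610 ± 38.9 TPM in normoxic cells (log2 fold change 0.64, adjusted p = 2.06e-05), while Mrpl49, which starts 59 bases away, had 58.8 ± 3.73 TPM against 71.3 ± 3.32 TPM in normoxic cells (SD, n = 3; −0.28, adjusted p = 0.0095). Mrps12 and its partner Sars2, the mitochondrial seryl-tRNA synthetase, were both lower (Sars2 −0.40, adjusted p = 0.0014). The partners Ndufs6, Ighmbp2, Gga3, Eme1 and Wdfy1 share 2.6 to 7.7% of the exon bases of their members, on the other strand. Apart from these pairs, 16 members share at least 10% of their exon bases with a gene that is not their partner. Use of strand in the counting is not stated, so values of such overlapping genes may be partly shared.

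RefSeq promoters were matched for 67 members, and the motifs were searched on both strands of the 300 bases. The CCGGAAG letters, as in Mrpl52, occurred in 35.8% of members, against 9.93% of 27025 genes with a promoter and 21.7% of the tested protein-coding genes. The YY1 letters AAGATGGCG occurred in 11.9% of members, against 1.64% of all and 3.88% of tested protein-coding genes. GCGCATG, as in Mrpl9, occurred in 10.4%, against 4.41% and 8.498%. The ACGTG core, as in Mrps2, was in 22.4% of members, against 21.8% of all and 29.6% of tested protein-coding genes, and the E-box CACGTG in 5.97%, against 8.09% and 11.9%. The E-box was found in 4 members (Mrpl2, Mrpl20, Mrpl36 and Mrpl37), all of the large subunit and all lower. Of the 67 members with a promoter, 42 were of the large subunit and 43 were lower. The same 4 members are also counted for ACGTG. By call, CCGGAAG was in 37.2% of the 43 lowered members and 36.4% of the 22 not called, GCGCATG in 9.30% and 9.09%, AAGATGGCG in 16.3% and 4.55%, and ACGTG in 27.9% and 13.6%. By subunit, ACGTG was in 31.0% of the 42 large and 8% of the 25 small subunit members. CCGGAAG was in 33.3% and 40%, AAGATGGCG in 9.52% and 16%, and GCGCATG in 14.3% and 4%. None of these differences was tested. A match of letters is a description of the sequence and not of binding.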

How the data were processed

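Poly(A)-enriched RNA of 3 hypoxia-treated and 3 normoxic GC-2spd samples was sequenced in pairs on an Illumina NovaSeq. Trimming by the authors used Cutadapt, alignment to mm10 used HISAT2 and gene quantification used StringTie; versions and annotation release are not given in the sources used here. The deposited coverage, a mean read depth without scaling, was used to work out aligned bases. The deposited FPKM is scaled for length and aligned fragments, and served as an alternative. The deposited TPM was entered as a score, because each file lists annotated genes beside assembled loci. The loci add up to 1000000 per library and the annotated genes, already contained in them in part, add up to 948283.6 to 981417.5. The design had assumed an ordinary TPM table. Annotated genes were analysed without rescaling. The authors tested counts with edgeR, and since the files used here hold no counts, log2 values were tested and no counting interval was calculated.

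Symbols were taken from GENCODE mouse release 21 and coordinates from the deposited files. For genes averaging at least 1 TPM, log2(TPM + 1) was fitted in limma 3.58.1 (variance trend, 2-sided, R 4.3.3) with the Benjamini-Hochberg adjustment at 0.05. A pseudocount of 1 understates the change of genes at a few TPM. The steps were tested on simulated data. The members, lists, tests and alternatives were chosen with earlier results of these data known. Values in every library are given for the called members of each subunit with the greatest changes, those of highest and lowest level, those whose place does not follow the symbol, and the leading genes of each list. Mrpl27, Mrpl48, Mrpl11, Mrpl58, Mrps34 and the neighbouring genes Pnpla7, Fau and Sars2 were chosen after their values were seen. Alternatives were other pseudocounts, filters, FPKM, other scalings, a fit without the variance trend, the replicate block, and leaving out each library. A comparison of protein sequences was not made. Figures were drawn with matplotlib 3.10.9.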

Additional observations from a re-analysis of the deposited data

How the results depend on the processing

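Of the 48 lower members, 33 kept their call in all 17 alternatives, 20 of the large and 13 of the small subunit, as did both higher members. Pseudocounts, a minimum of 5 TPM and most other settings moved no count by over 1.5 times. Scaling to a common median (median of ratios) gave 21 lower and 6 higher large subunit genes and 2 higher small subunit genes, with medians of −0.20 and −0.21, and it turned Mrpl24 round (0.14, adjusted p = 0.019, against −0.01). Quantile normalization gave 24 lower and 3 higher large and 2 higher small subunit genes, with medians of −0.27 and −0.25. Over all genes these scalings gave 3622 lower and 3603 higher, and 3639 lower and 3575 higher, with medians of 0.00. Median-ratio scaling is built to bring that median near 0, whereas quantile normalization makes the distributions of the libraries equal. The large subunit median was −0.40 with FPKM, −0.41 without the mitochondrially encoded genes and −0.33 with assembled loci, an alternative chosen after seeing the data that could be used for 46 members. Leaving out 1 library gave medians of −0.36 to −0.32 for the large and −0.45 to −0.28 for the small subunit, and 0 to 1 higher small subunit genes. Libraries with the same number did not deviate together (correlations of 0.03, 0.03 and 0.01). The labels do not state whether the numbers pair them, and low correlations cannot exclude it. With a replicate block 30 large and 17 small subunit genes were lower and 2 large higher. The same block gave 4674 lower and 2281 higher of all 13749 genes tested. Under it Mrpl43, Mrpl48 and Mrpl50 missed the threshold, and Mrps9 and Mrps18a passed it. The limits are 3 libraries per group, no counts, and exons shared with neighbours in 16 members.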
